A study of Mus musculus with 2 samples.

Results

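The genes described here are the 8 sarcomeric myosin heavy chain genes of striated muscle, Myh3, Myh8, Myh2, Myh1, Myh4, Myh13, Myh7 and Myh6, out of 24421 gene symbols in a table of read counts from mouse skin. They were chosen by family name and by their read counts in both libraries, which were already known, so every value below is a description and none is an independent test. The study asked how mechanical stretch of back skin acts on hair regeneration. RNA was sequenced from 1 library of skin stretched under 33% strain (D5T) and 1 library of skin without strain (D5C), both at day 5. Both came from wild type C57BL6/J mice, which were 8 weeks old per the methods, and both held all layers of the skin. The number of mice behind each library is not given. With 1 library per condition no difference has a replicate check, and each interval covers counting error only and compares these libraries, not the conditions.

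Myosin heavy chain is the motor of the thick filament, and the form that a muscle fibre uses sets how fast it shortens and how much ATP it spends. Myh3 encodes the embryonic form and Myh8 the perinatal form, which are replaced in most muscles after birth and come back for a time in regenerating fibres. Myh2, Myh1 and Myh4 encode the adult fast forms IIa, IIx and IIb, Myh7 the slow form, Myh6 the cardiac alpha form and Myh13 the form of the eye muscles. Beneath the back skin of the mouse lies a thin sheet of striated muscle, the panniculus carnosus, which consists mainly of fast fibres. In bulk RNA, fewer muscle cells and less RNA per cell cannot be told apart.

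The 6 genes from Myh3 to Myh13 stand in a row on the plus strand of chromosome 11 of mm10, over 293 kb in the annotation of GENCODE M21. They start at 67078300 (Myh3), 67171027 (Myh2), 67200052 (Myh1), 67238029 (Myh4), 67277124 (Myh8) and 67321658 (Myh13). Myh7 (54970684 to 54994626) and Myh6 (54941921 to 54966927) lie next to each other on the minus strand of chromosome 14. The coding sequences of Myh1 and Myh2 were identical at 91% of aligned bases, those of Myh1 and Myh4 at 90.2%, and those of Myh7 and Myh6 at 91.7%. Myh3 had 76.6% to 81.1% identity to the other 7 genes, and Myh13 had 75.9% to 79.8%. Since reads of 76 bases are assigned to a gene by such differences, a 60-base stretch of Myh4 that differs most from its neighbours in the cluster is shown here with its counterparts. Sequences are from GENCODE M21 transcripts, and capitals mark bases that differ from Myh4.
Myh4 exon 37, chr11:67259098-67259157, plus strand: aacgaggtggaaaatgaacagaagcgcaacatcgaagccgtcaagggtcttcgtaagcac
Myh1 exon 38, chr11:67222162-67222221, plus strand: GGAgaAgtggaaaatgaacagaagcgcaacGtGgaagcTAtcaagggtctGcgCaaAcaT
Myh2 exon 38, chr11:67194824-67194883, plus strand: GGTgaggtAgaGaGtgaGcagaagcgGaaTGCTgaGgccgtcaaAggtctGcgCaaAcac
Myh8 exon 38, chr11:67306169-67306228, plus strand: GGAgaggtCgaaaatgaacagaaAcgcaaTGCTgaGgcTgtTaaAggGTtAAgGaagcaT
Myh3 exon 38, chr11:67101103-67101162, plus strand: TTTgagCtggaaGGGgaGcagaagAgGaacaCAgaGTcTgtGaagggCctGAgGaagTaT
Myh13 exon 37, chr11:67369120-67369179, plus strand: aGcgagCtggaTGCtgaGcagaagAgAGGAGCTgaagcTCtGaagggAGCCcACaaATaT
Within this window Myh1 differed from Myh4 at 12 bases, Myh2 at 17, Myh8 at 19, Myh3 at 22 and Myh13 at 26.

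The genes also hold stretches that are the same in several members. The 60-base stretch most alike across the cluster was the same in Myh4, Myh2, Myh1 and Myh8, and Myh3 and Myh13 each differed from it at 1 base.
Myh4 exon 26, chr11:67253427-67253486, plus strand: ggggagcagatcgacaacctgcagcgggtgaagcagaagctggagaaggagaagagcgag
Myh3 exon 27, chr11:67094747-67094806, plus strand: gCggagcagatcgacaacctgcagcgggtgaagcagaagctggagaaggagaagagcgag
Myh13 exon 26, chr11:67356076-67356135, plus strand: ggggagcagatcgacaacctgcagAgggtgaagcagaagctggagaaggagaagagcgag
Since a read is longer than this window, sharing was measured for each gene over stretches of the read length.

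Of all 76-base stretches in its longest coding transcript, Myh1 shared 16.3% without a mismatch with another of the 8 genes. The share was 16% in Myh2, 12.6% in Myh8, 9.38% in Myh4, 5.04% in Myh13 and 1.8% in Myh3. Myh7 and Myh6 shared 15.1% and 15.4%, all of it with each other. Myh3, the embryonic gene, was thus the member whose reads were most distinct. The counting of reads with several placements is not given in the sources used here. Were coverage even and each shared read counted on every gene that holds it, Myh13 would have taken 1121 reads in control and 1289 in stretched skin from its relatives, against the 20 and 7 listed. Myh8 in control skin would have taken 5928 reads, against 381 listed, and Myh3 in control skin 112, against 59. These counts lay under the level of full sharing. Others did not, such as Myh7 with 106 and 13 counts against 0.461 and 0.615, and Myh6 in stretched skin. Myh4 in stretched skin had 3156 counts, also under its level of 3451, and the part of shared reads in those 3156 was not tested.

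**Figure D1:**
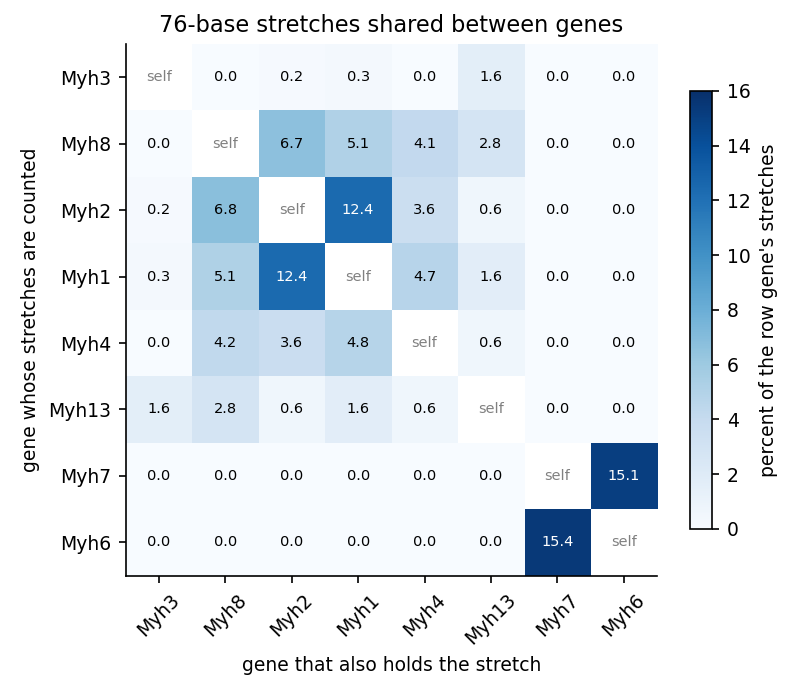
Percent of the 76-base stretches of the gene in each row that occur without a mismatch in the gene of each column. Myh2 and Myh1 share 12.4% with each other, Myh7 and Myh6 share 15.1% and 15.4%, and the row of Myh3 reaches no more than 1.58%.

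The regions before the starts of the genes are shown because members of 1 cluster moved in opposite directions. The 250 bases before the annotated start are from RefSeq (GRCm38.p6), 5′ to 3′, and capitals mark runs of 12 or more bases that at least 3 members share, found by a search made after the values were known.
Myh2 upstream, chr11:67170777-67171026, plus strand: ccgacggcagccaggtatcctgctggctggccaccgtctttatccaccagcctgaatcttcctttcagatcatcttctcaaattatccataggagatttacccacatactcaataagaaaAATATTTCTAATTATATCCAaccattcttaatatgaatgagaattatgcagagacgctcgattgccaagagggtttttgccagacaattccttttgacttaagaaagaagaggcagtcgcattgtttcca
Myh1 upstream, chr11:67199852-67200101, plus strand: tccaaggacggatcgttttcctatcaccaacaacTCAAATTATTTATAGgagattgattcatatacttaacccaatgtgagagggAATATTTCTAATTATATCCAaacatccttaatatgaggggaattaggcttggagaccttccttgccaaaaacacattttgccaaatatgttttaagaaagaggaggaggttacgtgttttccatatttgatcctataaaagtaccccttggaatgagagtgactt
Myh4 upstream, chr11:67237562-67237811, plus strand: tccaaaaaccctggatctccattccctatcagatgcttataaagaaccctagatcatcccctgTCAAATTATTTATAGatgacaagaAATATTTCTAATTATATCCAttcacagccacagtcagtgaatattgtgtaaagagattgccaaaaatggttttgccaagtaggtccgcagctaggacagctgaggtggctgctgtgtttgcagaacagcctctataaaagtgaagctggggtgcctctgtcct
Myh8 upstream, chr11:67276874-67277123, plus strand: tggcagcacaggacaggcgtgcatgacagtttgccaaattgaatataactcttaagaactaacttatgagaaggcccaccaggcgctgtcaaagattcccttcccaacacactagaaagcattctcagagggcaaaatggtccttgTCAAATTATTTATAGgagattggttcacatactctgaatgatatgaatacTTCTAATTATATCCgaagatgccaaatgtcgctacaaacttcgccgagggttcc
Myh3 upstream, chr11:67078050-67078299, plus strand: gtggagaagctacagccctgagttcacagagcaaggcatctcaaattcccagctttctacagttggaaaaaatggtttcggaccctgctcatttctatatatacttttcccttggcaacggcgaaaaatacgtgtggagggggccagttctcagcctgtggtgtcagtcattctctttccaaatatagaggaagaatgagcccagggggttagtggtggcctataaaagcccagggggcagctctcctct
The run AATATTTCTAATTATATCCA stood 165 bases before the start of Myh1, 163 before Myh4 and 130 before Myh2. Its inner 14 bases, TTCTAATTATATCC, also stood 54 bases before the start of Myh8, and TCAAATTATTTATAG was shared by Myh1, Myh4 and Myh8.

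Each of the 3 runs was looked for on both strands in all 32851 promoter windows of 300 bases, and none was found outside this family. TTCTAATTATATCC was in 4 windows (0.0122%), those of Myh1, Myh2, Myh4 and Myh8. The adult fast genes, of which Myh4 was lower and Myh1 and Myh2 were higher in stretched skin, thus held the same run, and Myh3 held none of the 3. TATAAA, the letters of a TATA box, was in the windows of 6 of the 8 members on either strand, beside 13.6% of all windows. It began 29 bases before the start of Myh3, 32 before Myh1, 31 before Myh4, 10 after the start of Myh2 and 1 after that of Myh6 on the strand of the gene. In Myh8 it was on the other strand. The letters CANNTG, which myogenic bHLH factors can bind, were in the windows of Myh3, Myh4, Myh8, Myh13, Myh6 and Myh7. They were absent from those of Myh1 and Myh2 and present in 72.3% of all windows. Their CAGCTG form was found in the window of Myh4, 67 bases before the start, and in no other member, beside 16.3% of all windows. TAAAAATA, searched for MEF2, and TCAGGTT, searched for MEF3, were in none of the members' windows and in 2.72% and 4.07% of all windows. Only these exact letters were searched, so other forms of these sites were not looked for. CATTCC, the MCAT letters, occurred in Myh1, Myh4, Myh6 and Myh7 and in 14.7% of all windows. The RefSeq start lies 217 bases before the GENCODE start of Myh4, and 50, 320 and 5445 bases inside the genes Myh1, Myh6 and Myh13, so the window of Myh13 is not at its GENCODE start. Myh7 has 2 windows, 1 of them 77 bases further in. All motifs were searched on both strands, and a match is a description of letters, not of binding.

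Total counts were 14152379 in control and 11648655 in stretched skin, and a floor of 3 counts is 0.212 and 0.258 CPM, the count scaled to the total of its library. The methods describe female mice, whereas Xist had 2 counts in each library and the Y-linked Ddx3y had 1004 and 761, in both libraries alike. Markers of other tissues moved between the libraries. All 10 listed hair keratins were lower in stretched skin (82205 counts in control and 10685 in stretched skin when summed, with a median log2 fold change of -4.05). Krt71, a keratin of the inner root sheath, held 60382 and 8796 of these counts, and the other 9 held 21823 and 1889. The interval was above 0 for 9 of 10 macrophage markers (9853 and 18777 counts summed, median 1.3) and for 7 of 8 measured posterior Hox genes (median 1.97), and Hoxc10 had 0 and 139 counts. The eighth, Hoxc13, was called lower with 1341 and 301 counts, and the 8 genes summed to 1574 and 1054. Of 9 skin markers, 7 had an interval above 0 (594127 and 761650 counts summed, median 0.14), and without the collagen genes Col1a1 and Col1a2 the other 7 summed to 242665 and 208466. The part of these differences in the values of the heavy chain genes was not tested.

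Myh3, the embryonic heavy chain, had 59 counts in control and 4637 in stretched skin, or 4.17 and 398 CPM. It went from rank 12524 to rank 284 among all genes by count. Its level per length, in FPKM (the CPM divided by the exon length in kilobases), was 0.688 in control and 65.7 in stretched skin. The ratio of CPM was 95.5, the highest of the family. Myh8, the perinatal heavy chain, had 381 and 6948 counts (26.9 and 596 CPM), a 22.2-fold difference, and its rank went from 7417 to 155. In FPKM its level was 2.29 in control and 50.7 in stretched skin. Both developmental forms were therefore low but above the floor in control skin and among the 300 genes with the most counts in stretched skin. Summed, they had 440 counts in control and 11585 in stretched skin, or 5.00 on the log2 scale (interval 4.86 to 5.14). The log2 fold change of Myh3 exceeded that of Myh8 by 2.11 (interval 1.71 to 2.51), a difference that does not depend on how the libraries are scaled.

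Myh4, the fast form IIb, was the heavy chain gene with the most counts in control skin. It had 91029 counts there and 3156 in stretched skin, or 6432 and 271 CPM, and went from rank 6 to rank 483 of all genes. Its FPKM was 1069 in control and 45 in stretched skin. The level in stretched skin was 23.7-fold lower, a log2 fold change of -4.57 (interval -4.62 to -4.52). Myh4 alone decreased by 6161 CPM, the other 7 genes together gained 4344 CPM, and the family as a whole decreased by 1817 CPM.

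The other adult fast genes differed the opposite way. Myh1, the fast form IIx, had 31133 counts in control and 54759 in stretched skin (2200 and 4701 CPM), which was 2.14-fold higher (log2 interval 1.08 to 1.12). Its level was 346 FPKM in control and 740 in stretched skin, and it went from rank 25 to rank 9 by count. Myh2, the fast form IIa, had 7178 and 16239 counts (507 and 1394 CPM), 2.75-fold higher (log2 interval 1.42 to 1.5). Its FPKM was 71.1 and 195. Myh1 and Myh2 thus moved by similar factors, although the log2 fold change of Myh2 was larger by 0.36 (interval 0.32 to 0.41). Relative to Myh4 they moved far apart. Myh4 had 2.92 counts for each count of Myh1 in control skin, and Myh1 had 17.4 counts for each count of Myh4 in stretched skin. The log2 fold changes of Myh1 and Myh4 differed by 5.66 (interval 5.61 to 5.72). The exons of Myh1 overlap those of the antisense gene Myhas over 515 bases (8.11% of its exon length), and since the strand setting of the counting is not given, reads of the pair cannot be told apart there.

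**Figure D2:**
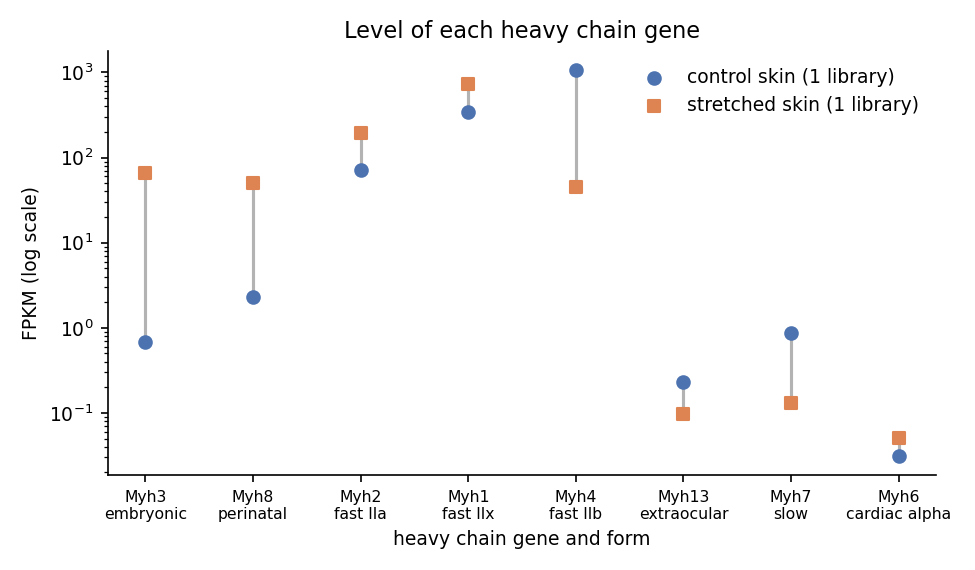
FPKM of the 8 heavy chain genes on a log axis, with circles for the control library and squares for the stretched library, and 1 library each. Myh3 and Myh8 lie at 0.688 and 2.29 in control skin and at 65.7 and 50.7 in stretched skin, while Myh4 drops from 1069 to 45.

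Myh7, the slow form, which is also the main heavy chain of the adult human heart, had 106 counts in control and 13 in stretched skin (7.49 and 1.12 CPM). That was 6.71-fold lower, with a log2 fold change of -2.75 (interval -3.70 to -1.91). Part of its exon length overlaps antisense genes, among them Mhrt over 5.62%, and the part of their reads in its counts was not tested. Myh7 was therefore a minor member in both libraries and lower in stretched skin. Myh13, the form of the eye muscles, had 20 counts in control and 7 in stretched skin, and its log2 fold change of -1.23 had an interval from -2.72 to 0.07. Myh6, the cardiac alpha form, had 3 counts in control and 4 in stretched skin, for which no difference was detectable at this depth (log2 interval -1.87 to 3.47). Of 10 cardiac markers, 6 were above the floor, with 2 intervals above 0 and 4 across it (455 and 519 counts summed for these 6, median 0.46). Sln, which skeletal muscle also uses, held 381 and 435 of these counts, and the other 5 held 74 and 84. Of the 4 at or under the floor, Myl7, Nkx2-5 and Gata4 had 0 counts in both libraries and Nppa had 0 and 1. The heavy chain genes outside the 8 were as low, with 5 counts of Myh7b in each library and 1 and 0 counts of Myh15.

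By the thresholds of the study's methods, genes are kept where the product of both FPKM values is above 10 and called at a fold of at least 2 or at most 0.5. Here FPKM was computed from the deposited counts and exon lengths, whereas the methods took it from Cufflinks. For both the product and the fold 1 was added to each FPKM, a choice not taken from the methods. Of the 8 genes, 5 passed this filter, and Myh3, Myh8, Myh2 and Myh1 were called higher and Myh4 lower. Among all 10911 genes that passed, 2.61% were called higher and 2.44% lower. Myh7, Myh13 and Myh6 did not pass, so these counts leave out 3 members. By the counting interval alone, 4 members lay above 0 and 2 lay below it (Myh4 and Myh7), beside 18.1% and 33.5% of 16255 genes above the floor. The members were chosen with these values known, and nothing is drawn from the excess. Over those 16255 genes the median difference was -0.12 on the log2 scale.

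Of the 28 pairs of members, 25 had log2 fold changes that differed beyond counting error. The other 3 pairs each included Myh6, with Myh2, Myh1 or Myh13, and for Myh6 and Myh1 the interval of the difference ran from -1.76 to 2.56. Myh4 and Myh7, which were both lower, differed by -1.82 (interval -2.66 to -0.99), Myh4 being the lower. The widest gap in the family was 11.15 (interval 10.77 to 11.52), between Myh3 and Myh4. Along chromosome 11, the direction was not uniform. Myh4 starts 160 kb after the start of Myh3, between Myh1 at 122 kb and Myh8 at 199 kb, which were both higher in stretched skin.

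**Figure D3:**
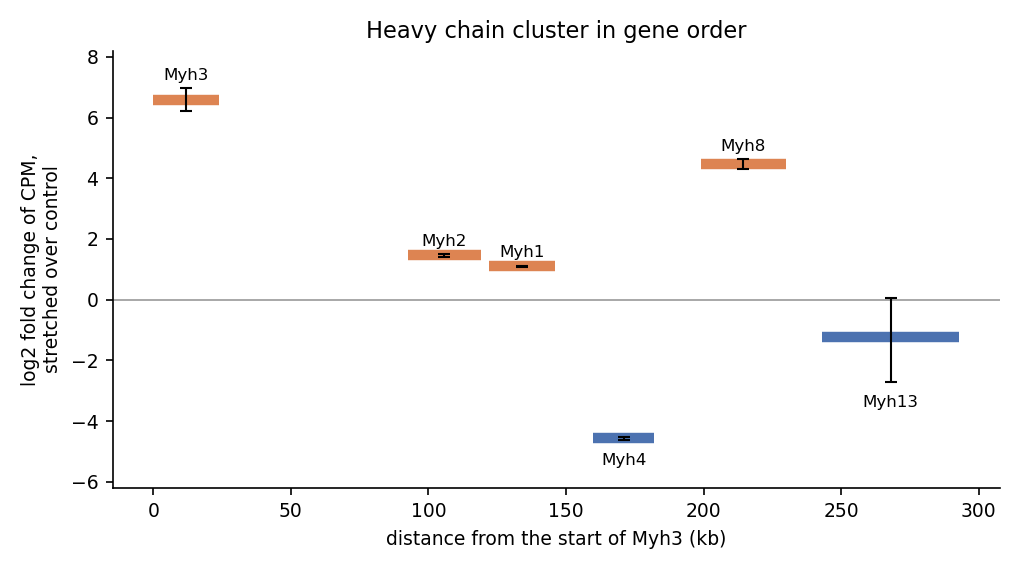
Log2 fold change of CPM (stretched over control) of the 6 genes of the cluster against distance in kb from the start of Myh3. Thick bars span each gene and thin bars are counting intervals, so that Myh4 at -4.57 stands between Myh1 at 1.10 and Myh8 at 4.47.

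The genes around the cluster did not show changes of this size. Of 7 listed neighbours, 4 were above the floor, and their log2 fold changes ran from -0.01 (Sco1) through 0.35 (Adprm) and 0.76 (Gas7) to 0.77 (Tmem220). Only the interval of Gas7 lay above 0 (1674 and 2336 counts), and 0 of the 4 were called. The 9 neighbours of Myh6 and Myh7 on chromosome 14 included Zfhx2 (-0.53), Slc22a17 (0.26) and Il25 (0 and 4 counts), and 0 were called. The others were Jph4 (-0.42), Cmtm5 (-0.30), Thtpa (-0.24), Efs (-0.15), Ngdn (-0.08) and Ap1g2 (0.04). The long noncoding gene 2310065F04Rik, known as linc-Myh and placed next to the fast genes, had 58 counts in control and 14 in stretched skin, or -1.77 on the log2 scale (interval -2.73 to -0.91). Its direction was that of Myh4. The microRNA genes Mir208a, Mir208b and Mir499, which lie within heavy chain genes, had 0 counts in both libraries.

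The 8 genes took 0.918% of all counts in control and 0.736% in stretched skin. Their sum went from 129909 to 85763 counts (9179 and 7362 CPM), a log2 fold change of -0.32 (interval -0.33 to -0.31). Without Myh4, the sum was 2747 CPM in control and 7092 in stretched skin, or 2.58-fold higher, so the sign of the family total rested on Myh4.

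Shares were taken per kilobase of exon, since genes differ in length. In control skin, Myh4 made up 71.7% of the family (interval 71.5% to 72%), Myh1 23.2%, Myh2 4.77% and the slow Myh7 0.0583%. Myh8 made up 0.153% and Myh3 0.0462%. In stretched skin, Myh1 made up 67.5% (interval 67.1% to 67.8%), Myh2 17.8%, Myh3 5.99%, Myh8 4.62% and Myh4 4.11%. The leading gene was thus Myh4 in control skin and Myh1 in stretched skin, and the place of Myh4 went from the first to the fifth. The adult fast genes together went from 99.7% to 89.4% of the family, and the developmental pair from 0.2% to 10.6% (interval 10.4% to 10.8%). As a share of raw counts, the pair went from 0.339% (interval 0.308% to 0.372%) to 13.5%. Most of the change in make-up was therefore within the adult fast genes, from Myh4 to Myh1 and Myh2, whose joint share went from 28% to 85.3%. Myh13 made up 0.0153% and 0.00886%, and Myh6 0.00211% and 0.00465%.

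**Figure D4:**
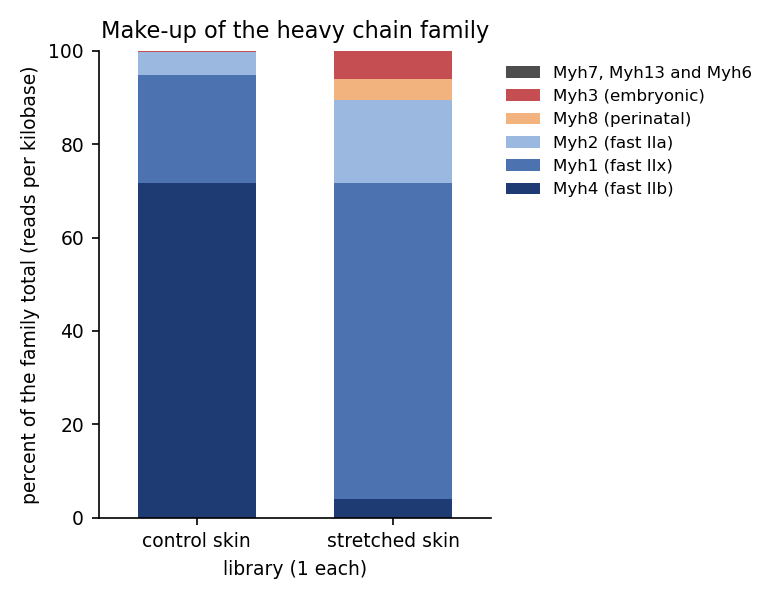
Percent of the family total, in reads per kilobase of exon, held by each gene in the control and the stretched library. Myh4 fills 71.7% of the control bar and 4.11% of the stretched bar, where Myh1 fills 67.5% and Myh3 and Myh8 together 10.6%.

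The order of the genes per length was Myh4, Myh1, Myh2, Myh8, Myh7, Myh3, Myh13 and Myh6 in control skin. Myh7 and Myh3 did not differ there beyond counting error, with a ratio of 1.26 (interval 0.91 to 1.77). In stretched skin the order was Myh1, Myh2, Myh3, Myh8, Myh4, Myh7, Myh13 and Myh6. Neighbours among the last 3 in this order did not differ beyond counting error. The ratios were 1.33 (interval 0.494 to 3.94) for Myh7 to Myh13 and 1.90 (interval 0.484 to 8.87) for Myh13 to Myh6. The place of Myh8 depends on its length. Its exons cover 11772 bases when all annotated transcripts are joined and 6149 in the longest transcript, and with the latter its share in stretched skin was 8.01%, above the 5.45% of Myh3.

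The light chains, which bind the neck of the heavy chain, also went far apart. Myl4, the light chain of atria and of embryonic muscle, had 67 counts in control and 1974 in stretched skin (log2 fold change 5.16, interval 4.81 to 5.54). Myl6b, an alkali light chain of slow muscle, had 89 and 784 counts (3.42, interval 3.10 to 3.75). Both were called higher. The adult fast light chains Myl1, with 29288 and 21997 counts (-0.13), and Mylpf, with 30182 and 21102 counts (-0.24), differed little beside Myh4. The slow light chains were low, as was Myh7, with 25 and 1 counts of Myl2 and 14 and 6 counts of Myl3. The log2 fold change of Myl2, with the count of 1 set to the floor of 3, was -2.78 and the interval from the counts ran from -9.72 to -1.75. Of the 6 measured light chains, 2 had an interval above 0, 3 below it and 1 across it, and their median was -0.18.

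Among 12 measured thick filament binding proteins, 2 had an interval above 0 and 8 below it, with a median of -0.57. Mybpc2, the myosin binding protein C of fast muscle, was called lower with 12215 counts in control and 2334 in stretched skin (-2.11). Mybpc1, its slow counterpart, was higher with 7221 and 10281 counts (0.79). The kinase gene Mylk4 had 446 and 39 counts (-3.23), and Myom3, an M-band protein, had 1776 and 2370 (0.70). The 13 genes of heavy chain folding, assembly and turnover had 3 intervals above 0 and 7 below it, with a median of -0.23. The muscle deaminase gene Apobec2 was called lower there (4797 and 848 counts, -2.22), and Trim55, a muscle ubiquitin ligase, stood highest (127 and 182 counts, 0.80). The small heat shock gene Cryab was at -0.78 and Murc, a caveola gene, at 0.45. Of these 2 groups, 0 genes were called higher and 3 lower, the third being the kinase gene Mylk2 (1681 and 518 counts, -1.42), named after its value was seen.

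Of 28 regulators of heavy chain genes, 8 had an interval above 0, 11 below it and 9 across it, and the median was 0.01. With the median of ratios scaling 11 lay above 0 and 8 below it, so neither direction prevailed under both. Myog had 174 counts in control and 447 in stretched skin (1.64, interval 1.39 to 1.90), and Myod1 had 112 and 217 (1.24). These myogenic factors were the 2 regulators called higher, and 0 were called lower. Ppargc1a, a coactivator linked to oxidative fibres, had 123 and 43 counts (-1.24), and Prdm1, which encodes BLIMP1, had 849 and 329 (-1.09). Of 10 satellite cell and myoblast markers, which include Myog and Myod1, 8 had an interval above 0 and 5 were called higher, with a median of 1.32. The fusion gene Tmem8c, also named Mymk, had 17 and 365 counts (4.71), and the adhesion gene Ncam1 had 290 and 876 (1.88). Megf10 (0.75) and Vcam1 (1.15) were the lowest of the list with 100 or more counts. Pax7, the marker of quiescent satellite cells, named here after its value was seen, had 21 and 15 counts (-0.20), and its interval included 0.

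The adult skeletal muscle genes other than myosins were mostly lower, with 4 called lower and 1 higher. Of 20 genes, 15 had an interval below 0 and 4 above it (13 and 6 with median of ratios scaling), with a median of -0.49 and summed counts of 479173 in control and 299831 in stretched skin. Pvalb, the calcium buffer of fast fibres, was lowest with 14367 and 2745 counts (-2.11), followed by Pygm, muscle glycogen phosphorylase (-1.59). The other genes called lower, named after their values were seen, were the calcium pump gene Atp2a1 (62233 and 19998 counts, -1.36) and the creatine kinase gene Ckm (50821 and 20271 counts, -1.05). Mb, the oxygen store of oxidative fibres, was highest with 2417 and 4249 counts (1.09), followed by Des (0.85). None of these 20 genes was as far from 0 as Myh4, Myh3 or Myh8. The smooth muscle and non-muscle heavy chains ran from -0.81 (Myh14) through -0.30 (Myh9) and -0.08 (Myh10) to 0.51 (Myh11), with 0 called. Of 8 smooth muscle markers, 5 had an interval above 0 and 3 below it (26513 and 31938 counts summed, median 0.32). The sum rested on Des, which is also a skeletal muscle gene, and the other 7 had 11158 and 9214 counts.

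**Figure D5:**
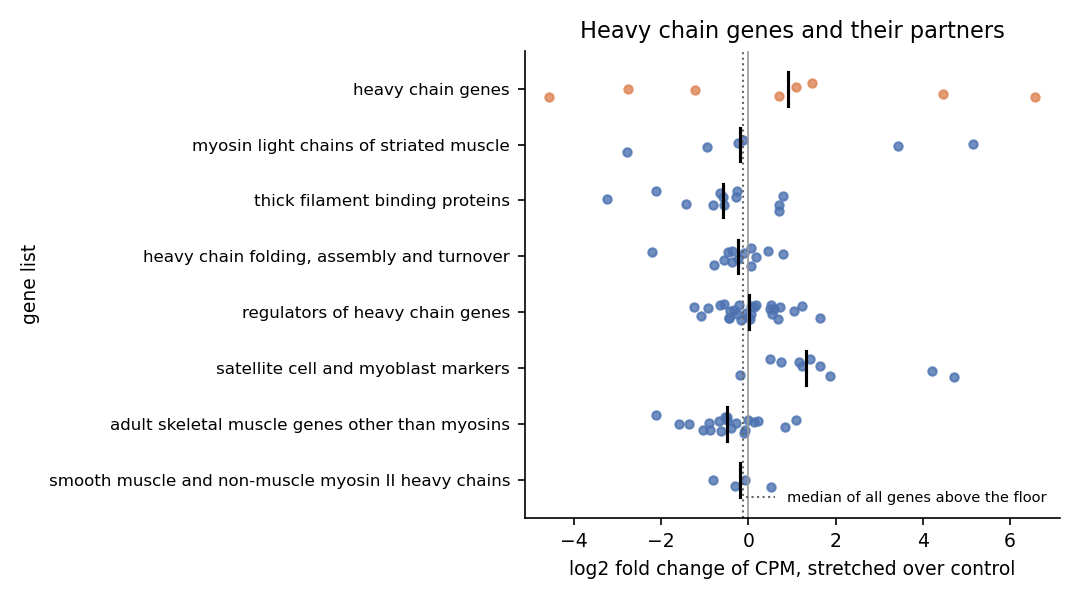
Log2 fold change of CPM (stretched over control) of single genes, with orange points for the 8 heavy chain genes and blue points for lists of related genes. Black lines are medians and the dotted line is the median of 16255 genes (-0.12), and the heavy chain genes run from -4.57 to 6.58.

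Among 5695 genes with 1000 or more counts over both libraries, the genes outside the family with the log2 fold change nearest to that of Myh3 were Myl4 (5.16), Tnni1 (4.77) and Prg4 (2.68). The same 3 genes were nearest to Myh8, in the order Tnni1, Myl4 and Prg4. Tnni1, the slow troponin I gene that developing muscle also uses, had 47 counts in control and 1055 in stretched skin, and Prg4, which encodes lubricin, had 234 and 1231. Prg4 was nearest only by rank, since it lay far below Myh3 (6.58) and Myh8 (4.47). With 1 value of change per gene, the order of nearness rests on 2 libraries only.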

How the data were processed

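The authors filtered single-end reads of 76 bases with the FASTX-Toolkit and aligned them to mm10 with TopHat2, and they deposited a count of reads per gene, not normalized. How reads were counted (program, annotation, strand, reads with several placements) is not given in the sources used here. The members and the gene lists were chosen with earlier results of these data known, and the shared promoter runs and coding windows were found after the values were seen.

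CPM scales each count to its library total. FPKM used the exon union of GENCODE M21, to which 23376 symbols matched by name and 651 by synonym. Folds are ratios of CPM with 95% Clopper-Pearson intervals, shares have delta-method intervals, and pair differences and ratios of levels have Wald or exact intervals. Counts of 3 or fewer were set to 3, and no fold is given where both were. No test across replicates could be made. The calls were checked on simulated counts. Identity was taken over coding bases, in place of protein residues as planned, because no protein table was at hand.

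The genes named are the 8 members, the other heavy chains, light chains, noncoding genes and neighbours, the 2 highest and 2 lowest genes with 100 or more counts of each other list, and the 3 genes nearest to Myh3 and Myh8. Outside this rule, Mylk2, Pax7, Atp2a1 and Ckm were named after their values were seen. Lists of cells other than skeletal muscle are given as counts, with some of their genes named beside the counts, also outside the rule. Alternatives were scaling by edgeR 4.0.16 (TMM), DESeq2 1.42.0 (median of ratios), upper quartile or without the top 50 genes, other lengths and totals for shares, and other filters and pseudocounts for calls. The software was R 4.3.3 and Python 3.11.15 with Biopython 1.88, scipy 1.17.1, pandas 2.3.3 and matplotlib 3.10.9.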

Additional observations from a re-analysis of the deposited data

How the results depend on the processing

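No paired analysis was possible because each condition has a single library, which also precludes leaving libraries out. No log2 fold change of a member or class and no list median changed sign under the alternatives run on it. Of 154 listed genes, 9 with values near 0 changed sign with scaling, Myh10, Bag3, Tbx15, Tead4, Sco1, Ngdn, Acta1, Tpm2 and Neb, and the interval of Acta1 went from below to above 0. The scaling alternatives add 1 shift to every log2 fold change (0.10 for TMM and 0.11 for median of ratios), and the family total, -0.32 as reported, was -0.22 after TMM and upper quartile scaling, -0.21 after median of ratios scaling and -0.25 without the 50 genes with the most counts. Of 40 values of single members, 12 moved past their counting interval, 4 each of Myh2, Myh1 and Myh4.

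Shares depended on the length used, given here as raw counts, longest transcript and unique 76-base stretches. Perinatal Myh8 was 0.293%, 0.288% and 0.286% in control skin and 8.1%, 8.01% and 7.43% in stretched skin, which reverses its order with embryonic Myh3 (5.41%, 5.45% and 4.5%). The pair together was 0.339%, 0.333% and 0.326% in control skin and 13.5%, 13.5% and 11.9% in stretched skin. Slow Myh7 in control skin was 0.0816%, 0.0791% and 0.0852%. The adult fast genes were 99.6%, 99.6% and 99.6% in control skin, or 99.8% of the chromosome 11 cluster alone, and 86.5%, 86.5% and 88% in stretched skin. In the main setting 285 genes were called higher and 266 lower. With EV (the product of FPKM values) above 100, 137 genes were called higher and 130 lower, and with CPM in place of FPKM 454 and 442. The balance moved with scaling, to 343 and 220 with TMM and 348 and 219 with median of ratios. The same 4 members were called higher and Myh4 lower in all 7 alternatives, and Myh7 was also called lower with CPM. Depth limits Myh6 and Myh13 most.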
